A study of Mus musculus with 6 samples.

Results

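The genes described here are 10 members of the insulin-like growth factor (IGF) system: the ligand gene Igf1, the receptor genes Igf1r and Insr, the adaptor gene Irs1, and the IGF binding protein genes Igfbp2, Igfbp3, Igfbp4, Igfbp5, Igfbp6 and Igfbp7. They were taken by symbol from the 57132 genes of the count table, after Ensembl identifiers were matched to GENCODE M21 without their version, and all 10 were found. The counts came from bulk RNA of 3 samples of immortalized wildtype (WT) podocytes, labelled Col4a3+/+, and 3 samples of immortalized Alport Syndrome (AS) podocytes, labelled Col4a3-/-. Both lines were labelled as male, from adult mice of 8 weeks, and untreated. They descend from a cross of Col4a3 knockout mice with H-2Kb-tsA58 mice, whose transgene encodes a temperature-sensitive large T antigen, so that WT podocytes carry the immortalizing transgene as well. Cells were grown in 10% fetal bovine serum with interferon gamma (20 U/mL per the labels) at 33 °C and differentiated at 37 °C for 14 days per the labels, while the study's methods give a shorter differentiation without interferon gamma and a lower concentration before it. Each genotype is 1 cell line, so that genotype and line cannot be told apart.

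IGF1 and insulin act through the related receptor tyrosine kinases IGF1R and INSR, which phosphorylate adaptors such as IRS1 and thereby activate PI3K and AKT, and AKT in turn keeps FoxO transcription factors out of the nucleus. IGF binding proteins are secreted, hold IGFs outside the cell and either block or deliver them to the receptor, and several also attach to matrix. Podocytes are known to respond to insulin, and both insulin and IGF signalling are known to act on their survival and cytoskeleton.

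The largest differences between the lines were those of 3 of the 6 binding protein genes. Igfbp6 was 53.9-fold higher in AS than in WT podocytes, Igfbp5 was 10.3-fold lower, and Igfbp3 was nearly absent from AS podocytes. The receptor gene Igf1r was not called, whereas Insr and Irs1 were 1.45-fold and 1.48-fold higher. Igfbp2 and Igfbp7, which made up nearly all of the binding protein RNA in both lines, were at 0.849-fold and 1.16-fold of their WT level. In all, 8 of the 10 genes passed an adjusted p of 0.05 in edgeR's quasi-likelihood test (5 higher and 3 lower in AS podocytes), where 40.1% of the 16263 genes tested passed, 20.4% as higher and 19.6% as lower. The samples of the lines did not overlap in 8 of the 10, against 52.3% of all genes tested. A call with a fold change over 8 was made for 3 of the 10 and for 2.2% of all genes tested. The 10 genes were chosen with earlier results of these data known, so that these shares describe the list and do not test it. Igfbp3 passed the filter on low counts only through the WT samples and Igfbp6 only through the AS samples, so that each was tested because it was high in 1 line.

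The libraries held 45417221 to 54290968 counts. Replicates of a line are numbered sets that the labels do not tie to separate cultures, so that p-values measure only the spread between these samples, which may be technical. No pair of replicates was as alike as a library counted again (chi-square per degree of freedom between 9.73 and 49.5). Col4a3 was at 938, 1052 and 1272 CPM (counts scaled to the same library size) in WT and 62.4, 61.2 and 82.9 CPM in AS samples, in the direction of the labels. Mitochondrial genes held 0.882 to 1.68% of WT and 1.30 to 2.02% of AS counts. The podocyte label was only partly borne out: Nphs1, the gene of nephrin, was at 0.466 ± 0.00969 CPM for WT and 0.0407 ± 0.0390 CPM for AS podocytes, and Tcf21 had 0 counts in all 6 samples, while Synpo was at 803 ± 44.2 and 526 ± 30.8 CPM (SD, n = 3 each). Of 12 podocyte genes, 9 were tested. Of these, 6, with Col4a3 and Nphs1 among them, were lower and 1 was higher in AS podocytes. Nphs1 passed the filter on low counts only through the WT samples, so that it was tested because it was high in 1 line. Over all genes tested, 20.4% were called higher and 19.6% lower. The summed level of the 12 genes was 2302 to 2612 CPM in WT and 1074 to 1154 CPM in AS samples. Col4a3 made up 1087 ± 170 and 68.8 ± 12.2 CPM of it (SD, n = 3 each), the larger part of the difference. Of 12 mesangial, fibroblast and smooth muscle genes, 11 were tested, 3 were higher and 4 were lower. Their sum (9855 to 12350 CPM in WT and 9714 to 11284 CPM in AS samples) was carried by Acta2, at 6701 ± 1094 and 6759 ± 588 CPM, and Tagln, at 4158 ± 174 and 2859 ± 258 CPM (SD, n = 3 each), with Lum at 0 counts. Within this list Col1a1 and Col3a1 were 19.6-fold and 20.9-fold higher in AS podocytes, while Col1a2, Myh11 and Pdgfrb were 30.4-fold, 7.31-fold and 2.18-fold lower. The summed level of 8 endothelial genes was 44.9 to 53.1 CPM in WT and 38.1 to 43.1 CPM in AS samples (3 tested, 0 higher, 2 lower). Ehd3 carried this sum, at 48.6 ± 4.05 and 40.6 ± 2.87 CPM (SD, n = 3 each). Those lower were Ehd3 and Kdr, and Kdr passed the filter only through the WT samples. The sum of 7 immune genes was 11.6 to 15.4 and 5.47 to 7.41 CPM (4 tested, 0 higher, 1 lower, Adgre1 and Cd3e at 0). For 8 tubule genes it was 253 to 316 and 203 to 313 CPM (4 tested, 0 higher, 1 lower, Umod and Aqp2 at 0). Lrp2 carried the tubule sum, at 274 ± 30.9 and 255 ± 55.6 CPM (SD, n = 3 each). For 6 parietal epithelial genes the sum was 643 to 672 and 503 to 533 CPM (5 tested, 0 higher, 3 lower). Krt18, 1 of those lower, passed the filter only through the WT samples, with 42 counts in WT and 3 in AS samples. The part of these differences in the results below was not tested, and in bulk RNA fewer cells of a type and less RNA per cell cannot be told apart.

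**Figure D1:**
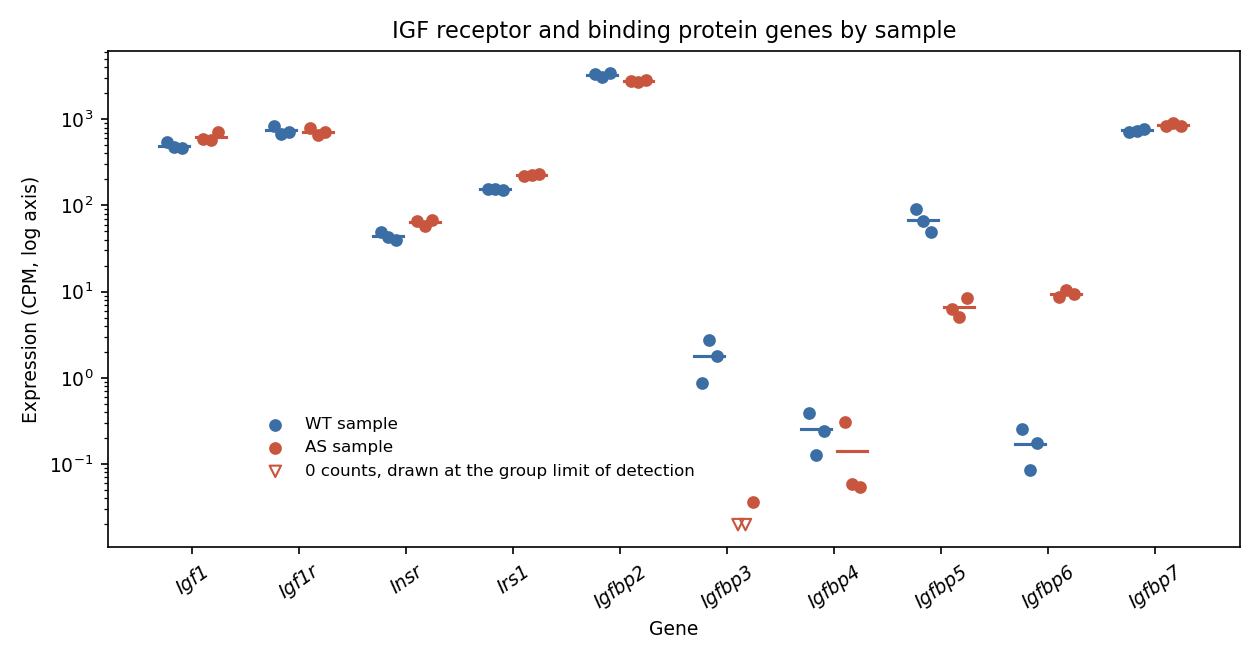
Expression of the 10 genes in CPM (log axis) in each of the 3 WT samples (blue) and 3 AS samples (red), with bars at the group means. Open triangles are samples with 0 counts, drawn at the limit that a count of 0 allows over the group, and no mean is drawn there. Igfbp6 lay above 8 CPM in every AS sample and below 0.3 CPM in every WT sample, while Igfbp2 stayed near 3000 CPM in both lines.

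The ligand gene Igf1 (ENSMUSG00000020053.19, chromosome 10) was well expressed in both lines. WT samples gave 547, 472 and 461 CPM, against 592, 569.99 and 709.6 CPM for AS samples. Every AS sample lay above every WT sample, by a margin that was small beside the spread within a line. The mean was 493 ± 47.1 in WT and 624 ± 74.99 CPM in AS podocytes (SD, n = 3 each), which on the log2 scale was a change of 0.34 ± 0.10 (SE; edgeR adjusted p = 0.0214). The call was lost without WT replicate 2 (adjusted p = 0.0717), WT replicate 3 (adjusted p = 0.0801) or AS replicate 3 (adjusted p = 0.0829, edgeR). Genes of chromosome 10 were higher in AS podocytes as a whole, with a median log2 fold change of 0.32 over 530 genes. With the chromosome median removed, taken relative to the median of all genes (0.308), Igf1 was at 0.030 (adjusted p = 0.843, edgeR). The antisense gene Igf1os overlaps Igf1 and held 14 counts over all samples. Igf2, the other IGF gene, did not pass the filter on low counts: 39 reads were counted in AS and 1 in WT samples, a ratio of 37.0 with a 95% interval of 6.26 to 1498 that covers counting error only. The insulin genes Ins1 and Ins2 had 0 counts in every sample, for which the upper limit (3 counts over a group) is 0.0209 CPM for WT and 0.0198 CPM for AS.

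Igf1r (ENSMUSG00000005533.11, chromosome 7) gave 837, 679.7 and 714 CPM among WT samples, against 788, 647 and 701 CPM among AS samples. The samples of the lines were interleaved. The log2 fold change was -0.06 with a 95% interval of -0.28 to 0.16 (adjusted p = 0.6496, edgeR), so that a difference of either sign up to these bounds is not excluded, and its sign turned to 0.030 without WT replicate 1. Insr (ENSMUSG00000005534.11, chromosome 8) gave 49.5, 42.8 and 39.5 CPM among WT samples, against 65.2, 58.4 and 67.8 CPM among AS samples. The lines did not overlap. edgeR estimated 0.54 ± 0.09 (SE) for the log2 fold change, with adjusted p = 0.00140, and Insr passed with each sample left out in turn. Chromosome 8 was higher in AS podocytes as a whole, with a median log2 fold change of 0.32 over 616 genes. With this median removed, taken relative to the median of all genes (0.309), Insr was at 0.23 (adjusted p = 0.0831, edgeR).

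The level of Igf1r exceeded that of Insr in every sample when both were divided by exon length. The ratio of Igf1r to Insr, in CPM per kilobase, was 13.8, 13.0 and 14.8 among WT samples, against 9.89, 9.08 and 8.46 among AS samples. The ratio was thus lower in every AS sample than in every WT sample, at 13.9 ± 0.894 against 9.14 ± 0.717 (SD, n = 3 each). The log2 ratio differed by -0.60 (exact permutation test, two-sided, p = 0.10, the smallest that 3 against 3 samples allow). No scaling of the libraries changes this ratio, although the shift of chromosome 8 enters it. Igf2r, which encodes the receptor that takes up IGF2 and mannose 6-phosphate proteins and does not signal as a kinase, was at 106 ± 14.0 CPM for WT and 216 ± 28.2 CPM for AS podocytes (SD, n = 3 each), which on the log2 scale was a change of 1.02 ± 0.11 (SE; edgeR adjusted p = 0.000115).

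Irs1 (ENSMUSG00000055980.3, chromosome 1), the adaptor that carries the signal of both receptors to PI3K, had the smallest spread relative to its mean of the 10 genes among WT samples. WT samples gave 153, 156 and 152 CPM, against 221, 228 and 234 CPM for AS samples. The lines were far apart relative to the spread within each. edgeR estimated 0.57 ± 0.05 (SE) for the log2 fold change, with adjusted p = 3.41e-05, it ran from 0.55 to 0.59 over all alternatives run, and the median of chromosome 1 was -0.012. The predicted coding gene Gm9747 overlaps Irs1 on the opposite strand and was not matched to the table.

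**Figure D2:**
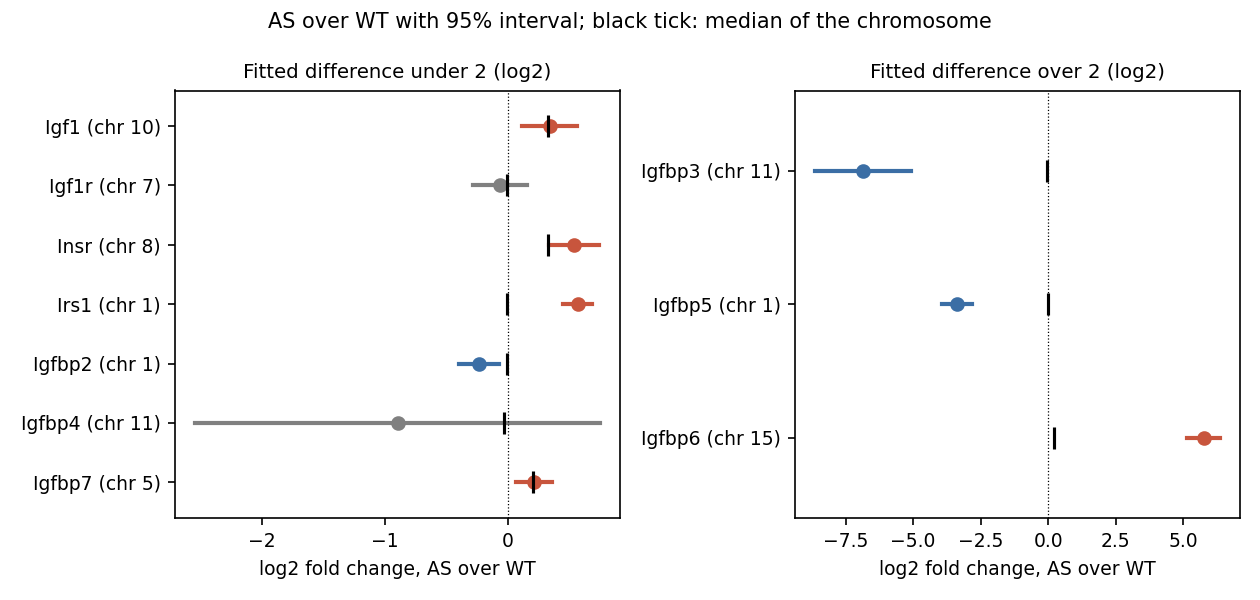
Log2 fold change of AS over WT podocytes for each gene with its 95% interval from edgeR (red, called higher; blue, called lower; grey, not called), split by size into panels with different axes. Black ticks give the median log2 fold change of the gene's chromosome, which lies at the estimate for Igf1 (0.32 on chromosome 10) and Igfbp7 (0.20 on chromosome 5) and far from it for Igfbp3, Igfbp5 and Igfbp6.

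Igfbp2 (ENSMUSG00000039323.19, chromosome 1), which encodes a major circulating binding protein, was by far the most abundant of the 10 genes. It gave 3359.7, 3077 and 3405 CPM among WT samples, against 2803, 2680.3 and 2874 CPM among AS samples. The lines did not overlap. Per kilobase of exon, Igfbp2 stood at rank 7 of 15876 genes in WT and at rank 11 in AS podocytes, with 1776 ± 96.3 and 1508 ± 53.1 CPM per kilobase (SD, n = 3 each). edgeR estimated -0.24 ± 0.07 (SE) for the log2 fold change, with adjusted p = 0.0279. The call was lost without WT replicate 3 (adjusted p = 0.0901), AS replicate 1 (adjusted p = 0.0699), AS replicate 2 (adjusted p = 0.103) or AS replicate 3 (adjusted p = 0.0546, edgeR), and with the chromosome median removed (log2 fold change of -0.21, adjusted p = 0.0525, edgeR).

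Igfbp7 (ENSMUSG00000036256.14, chromosome 5) encodes a binding protein with low affinity for IGFs that is deposited around cells. It gave 719, 727 and 774 CPM among WT samples, against 843, 904 and 824 CPM among AS samples. Every AS sample lay above every WT sample. edgeR estimated 0.21 ± 0.07 (SE) for the log2 fold change, with adjusted p = 0.0278, close to the median of 0.20 over the 690 genes of chromosome 5. With that median removed, taken relative to the median of all genes (0.187), the log2 fold change was 0.025 (adjusted p = 0.803, edgeR). The call was also lost without WT replicate 2 (adjusted p = 0.0822), AS replicate 1 (adjusted p = 0.0713) or AS replicate 2 (adjusted p = 0.123, edgeR). Polr2b overlaps the end of Igfbp7 by 85 bases on the opposite strand, and whether reads were counted by strand is not known. At 612 ± 24.4 and 709 ± 34.8 CPM per kilobase (SD, n = 3 each), Igfbp7 stood at rank 36 in WT and rank 26 in AS podocytes.

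The genes with the largest differences were Igfbp3, Igfbp5 and Igfbp6, and the 250 bases before their RefSeq starts are shown so that the promoters of genes that moved in opposite directions can be read side by side. The sequences are from RefSeq on GRCm38.p6, 5′ to 3′ on the strand of the gene. Bases soon after the start were found in a GENCODE M21 transcript of the gene for Igfbp3 and Igfbp5. They were not found for Igfbp6, so that its RefSeq start was not matched to M21. The same holds for Igf1r, Irs1 and the upstream entry of Igfbp2. Of the 10 genes, 9 had a promoter in that table and Insr had none. Capitals mark matches on either strand to 6 motifs. The letters searched were TATAAA for the promoter element known as the TATA box and CCAAT for the box of that name. The sequence GGGCGG was searched as the GC box bound by Sp1 and its relatives, and TGANTCA was searched as the site of AP-1 factors. Finally CACGTG was searched as the E-box and, for the FoxO factors named above, the core of their site was searched as GTAAACA.
Igfbp3, chr11:7213924-7214173, minus strand: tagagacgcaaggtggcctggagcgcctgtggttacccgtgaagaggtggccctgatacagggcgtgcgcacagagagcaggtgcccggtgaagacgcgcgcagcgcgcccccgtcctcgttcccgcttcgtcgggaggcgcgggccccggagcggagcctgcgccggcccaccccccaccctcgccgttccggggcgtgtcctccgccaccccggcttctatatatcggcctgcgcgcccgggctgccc
Igfbp5, chr1:72874866-72875115, minus strand: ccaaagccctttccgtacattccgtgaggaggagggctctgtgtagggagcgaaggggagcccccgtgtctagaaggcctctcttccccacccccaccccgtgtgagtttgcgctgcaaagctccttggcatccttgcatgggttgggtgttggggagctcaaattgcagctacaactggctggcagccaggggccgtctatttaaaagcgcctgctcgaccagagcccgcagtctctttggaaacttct
Igfbp6, chr15:102143936-102144185, plus strand: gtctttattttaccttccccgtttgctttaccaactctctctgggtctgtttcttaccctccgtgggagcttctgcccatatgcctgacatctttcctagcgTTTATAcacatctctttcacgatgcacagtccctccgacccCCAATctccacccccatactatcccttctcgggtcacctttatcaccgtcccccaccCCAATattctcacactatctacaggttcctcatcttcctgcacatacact

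The Igfbp6 window held 1 match to the TATA box letters and 2 CCAAT boxes. No exact match to the searched letters was found in the Igfbp3 and Igfbp5 windows. The TATA match of Igfbp6 began at -148 from the RefSeq start and read TTTATA, so that it lay on the opposite strand. The AT-rich runs tatatat in the Igfbp3 window and tatttaaaa in the Igfbp5 window were not counted by an exact search. Which of the 3 promoters has a TATA box in use thus cannot be read from these matches. Over all 32851 promoter windows of the same length, a TATA box was found in 12.4%, a CCAAT box in 33.8%, a GC box in 32.7%, an AP-1 site in 6.75%, an E-box in 6.02% and a FoxO site in 3.17%. Of the 3 windows shown, that of Igfbp3 was the richest in CpG, with 32 CpG and 73.2% GC, and that of Igf1r, not shown, held 42 CpG and 77.6% GC. That of Igfbp5 held 10 CpG and 58.8% GC, and that of Igfbp6 held 7 CpG and 49.6% GC, beside medians of 6 CpG and 52.4% GC over all windows. Among the windows not shown, that of Igfbp7 held 4 GC boxes and the upstream one of the 2 Igfbp2 entries held 3, while the other Igfbp2 entry and Igf1 held 0. A match of letters is a description of the window and no site of binding.

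Igfbp6 (ENSMUSG00000023046.7, chromosome 15) encodes the binding protein that prefers IGF2 to IGF1. WT samples gave 0.256, 0.0855 and 0.173 CPM, against 8.68, 10.5 and 9.30 CPM for AS samples. WT samples were near the limit of detection, with 25 counts in all, and AS samples held 1443 counts. edgeR estimated 5.75 ± 0.26 (SE) for the log2 fold change, with adjusted p = 4.01e-07, and it ran from 5.44 to 6.17 over all alternatives run. Chromosome 15 as a whole was shifted by a median of 0.20 only. Per kilobase, Igfbp6 rose from 0.154 ± 0.0769 to 8.54 ± 0.834 CPM (SD, n = 3 each), from rank 14514 to rank 5047.

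Igfbp5 (ENSMUSG00000026185.9, chromosome 1) encodes a binding protein that attaches to extracellular matrix, and is the neighbour of Igfbp2 on the chromosome with no coding gene between them. WT samples gave 91.1, 65.3 and 49.3 CPM, against 6.33, 5.06 and 8.47 CPM for AS samples. The WT samples differed among themselves more than for any other gene above 10 CPM of the 10, yet the lowest WT sample lay well above the highest AS sample. edgeR estimated -3.37 ± 0.24 (SE) for the log2 fold change, with adjusted p = 7.71e-06, between -3.59 and -3.11 over all alternatives run. The neighbouring Igfbp2 was thus at 0.849 of its WT level where Igfbp5 was at 0.0967.

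Igfbp3 (ENSMUSG00000020427.12, chromosome 11) encodes the main carrier of IGFs in serum. It had 44, 128 and 83 counts among WT samples, against 0, 0 and 2 counts among AS samples. In CPM this was 0.868, 2.73 and 1.80 in WT podocytes, a level that is low and varies among the samples, and no more than 0.0363 in AS podocytes. The summed counts gave a WT level 134-fold that of AS podocytes with a 95% interval of 36.8 to 1116 for counting error only. edgeR fitted -6.84 ± 0.79 (SE) as the log2 change, with adjusted p = 0.000147. It rests on 2 counts in AS podocytes and ran from -9.43 to -6.33 over the alternatives, all of them past the threshold, although the gene was not tested under a mean CPM minimum of 1. Its neighbour Igfbp1, which is known as an insulin-suppressed gene of liver, had 0 counts in every sample.

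Igfbp4 (ENSMUSG00000017493.13, chromosome 11), whose protein is the classical substrate of the protease PAPP-A, was barely detected, with 20, 6 and 11 counts among WT samples, against 14, 3 and 3 counts among AS samples. The lines overlapped. Its log2 fold change of -0.90 had a 95% interval of -2.54 to 0.75 (adjusted p = 0.365, edgeR). The summed counts gave a WT level 1.95-fold that of AS podocytes, with a 95% interval of 1.10 to 3.55 for counting error only, and the counts varied among the samples of each line. Leaving out AS replicate 1 moved the log2 fold change to -2.14 (adjusted p = 0.0590, edgeR). It was -0.42, -0.53 and -0.49 when WT replicate 1, AS replicate 2 or AS replicate 3 was left out (adjusted p between 0.654 and 0.735, edgeR).

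The 6 binding protein genes were then set against each other within each sample, per kilobase of exon. Their summed level was 2429, 2279 and 2492 CPM per kilobase among WT samples, against 2223, 2209.5 and 2248 CPM per kilobase among AS samples. It was 2400.2 ± 109.7 in WT and 2227 ± 19.3 CPM per kilobase in AS podocytes (SD, n = 3 each; exact permutation test, two-sided, p = 0.10). The groups did not overlap, and this p is the smallest the test can give. Igfbp2 held 74.9, 73.1 and 73.97% of the sum among WT samples, against 68.3, 65.7 and 69.2% among AS samples. Igfbp7 held 24.5, 26.4 and 25.7% among WT samples, against 31.3, 33.9 and 30.3% among AS samples. The share of Igfbp2 was therefore lower by 6.26 and that of Igfbp7 higher by 6.33 percentage points in AS podocytes, with no overlap between the lines. As Igfbp2 and Igfbp7 fill nearly all of the sum, their shares mirror each other, and the shift of chromosome 5 enters both. Igfbp5 held 0.477 ± 0.147% of the sum in WT and 0.0494 ± 0.0124% in AS podocytes, while Igfbp6 held 0.00637 ± 0.00306% and 0.384 ± 0.0395% (SD, n = 3 each). For 5 of the 6 genes, all but Igfbp4, the exact permutation test gave its smallest value (p = 0.10, adjusted p = 0.12 over the 6 genes, two-sided), so that no share could pass a threshold of 0.05.

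Within the small part that Igfbp2 and Igfbp7 leave, a different gene led in each line. Over the sum of Igfbp3, Igfbp4, Igfbp5 and Igfbp6, Igfbp5 held 96.2, 91.7 and 91.3% among WT samples, against 11.8, 8.17 and 14.4% among AS samples. Igfbp6 held 1.46, 0.648 and 1.73% among WT samples, against 87.4, 91.7 and 85.4% among AS samples. The leading gene was Igfbp5 in every WT sample and Igfbp6 in every AS sample, while the sum of the 4 genes overlapped between the lines (8.99 to 15.8 CPM per kilobase in WT and 8.93 to 10.3 in AS samples). These values describe a grouping that was made after the levels were seen.

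**Figure D3:**
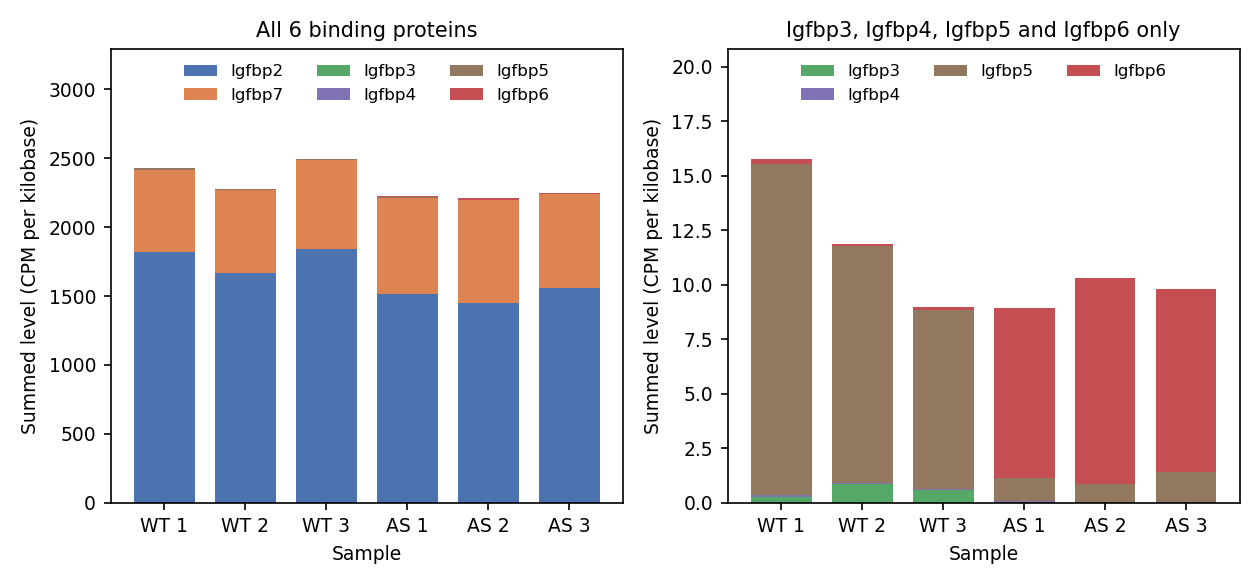
Summed level of the IGF binding protein genes in CPM per kilobase of exon for each sample, stacked by gene, for all 6 genes (left) and for the 4 low genes alone on an enlarged axis (right). Igfbp2 and Igfbp7 fill the left bars in every sample, and on the right Igfbp5 fills the WT bars and Igfbp6 the AS bars.

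Ordered by level per kilobase, WT podocytes held Igfbp2, Igfbp7, Igf1, Igf1r, Irs1, Igfbp5, Insr, Igfbp3, Igfbp6 and Igfbp4, from 1776 down to 0.0574 CPM per kilobase. In that order Igf1 and Igf1r overlapped (46.6 to 55.3 and 40.5 to 49.8), as did Igfbp6 and Igfbp4. The order in AS podocytes was Igfbp2, Igfbp7, Igf1, Igf1r, Irs1, Igfbp6, Insr, Igfbp5, Igfbp4 and Igfbp3, from 1508 down to 0.00387 CPM per kilobase. The highest 5 places were thus shared by the lines, and Igfbp6 stood where Igfbp5 stood in WT podocytes. Igf1 and Igf1r were apart in AS samples, at 57.6 to 71.6 and 38.5 to 46.9 CPM per kilobase.

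Other genes that act on IGFs outside the cell were examined as lists. Of 8 genes of binding protein proteases and their inhibitors, 1 was higher and 2 were lower in AS podocytes (median log2 fold change of -0.27, where the median of all genes tested was 0.0061). Among all genes tested, 40.1% were called. Pappa, which encodes PAPP-A, a protease that cleaves IGFBP4 and IGFBP5, gave 38.4, 31.7 and 43.1 CPM among WT samples, against 22.2, 18.1 and 22.2 CPM among AS samples (log2 change of -0.86 ± 0.12, SE; edgeR adjusted p = 0.000486). Stc2, whose product stanniocalcin-2 inhibits PAPP-A, was at 25.5 ± 6.76 and 38.5 ± 1.98 CPM (SD, n = 3 each; log2 fold change of 0.59, adjusted p = 0.0144, edgeR), and it missed the threshold without AS replicate 3 (adjusted p = 0.0505). Stc1, which encodes the related stanniocalcin-1, was not called, at 0.409 ± 0.149 and 0.226 ± 0.0829 CPM (SD, n = 3 each; 95% interval of the log2 fold change from -1.89 to 0.24). Htra3, a serine protease gene, was lower by a log2 fold change of -2.38 from 1.00 ± 0.160 CPM in WT podocytes (SD, n = 3; adjusted p = 0.000546, edgeR), and like Igfbp3 it passed the filter on low counts only through the WT samples, while its relative Htra1 was not called (log2 fold change of -0.02, 95% interval -0.27 to 0.22). Of the 9 other ligands, receptors and carriers, 3 were tested and 2 were called, Igf2r and Kazald1, both higher.

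The RNA binding proteins named after IGF2 mRNA moved apart. Igf2bp1 was lower at 51.9 ± 7.47 CPM for WT and 31.6 ± 0.242 CPM for AS podocytes (SD, n = 3 each; log2 fold change of -0.71, adjusted p = 0.000418, edgeR). Igf2bp3 was higher at 0.770 ± 0.205 and 2.71 ± 0.784 CPM (SD, n = 3 each; log2 fold change of 1.81, adjusted p = 0.00130, edgeR). Igf2bp2 was higher by 0.22 (adjusted p = 0.0152, edgeR), a call that was lost without WT replicate 2 (adjusted p = 0.0511), WT replicate 3 (adjusted p = 0.0561), AS replicate 1 (adjusted p = 0.0696) or AS replicate 2 (adjusted p = 0.0684). All 3 genes of this list were therefore called, in both directions, where 40.1% of all genes tested were called.

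Downstream of the receptors, the adaptors and attenuators were mixed: of 15 genes, 14 were tested, 4 were higher and 2 were lower (median log2 fold change of -0.04). This is near the share called over all genes tested, 40.1%. Grb10, an adaptor that restrains the insulin and IGF1 receptors, had the smallest adjusted p of the list. It gave 80.2, 74.8 and 87.2 CPM among WT samples, against 217, 207 and 222 CPM among AS samples, which on the log2 scale was a change of 1.42 ± 0.07 (SE; edgeR adjusted p = 5.09e-07). The related Grb14 was lower instead (log2 fold change of -0.56, adjusted p = 0.00172, edgeR). Irs2, the adaptor most like Irs1 in function, gave 32.9, 27.6 and 19.6 CPM among WT samples, against 53.1, 43.5 and 47.8 CPM among AS samples (log2 fold change of 0.85, adjusted p = 0.00257, edgeR), in the same direction as Irs1. Irs3 was low and was not called, at 0.391 ± 0.282 CPM for WT and 0.179 ± 0.135 CPM for AS podocytes (SD, n = 3 each; 95% interval of the log2 fold change from -2.77 to 0.50), and Irs4 was not tested. Irs2 lies on chromosome 8, and with the chromosome median removed it was at 0.54 (adjusted p = 0.0282, edgeR). Shc1, the adaptor that leads to the MAP kinases, was lower, at -0.29 on the log2 scale (adjusted p = 0.00338, edgeR).

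Of 17 genes of PI3K and AKT, 6 were higher and 2 were lower (median log2 fold change of 0.05), where 40.1% of all genes tested were called. None of those called in this list had a fold change over 2, against 11.2% of all genes tested. Phlpp2, a phosphatase of AKT, was higher by 0.57 on the log2 scale (adjusted p = 0.000295, edgeR), and by 0.26 with the median of chromosome 8 removed (adjusted p = 0.0224, edgeR). The catalytic subunit gene Pik3cb (0.46) and the regulatory subunit gene Pik3r2 (0.41) were also higher (adjusted p = 0.000584 and 0.000494, edgeR), although Pik3r2, on chromosome 8, was at 0.10 with the chromosome median removed (adjusted p = 0.206, edgeR). The regulatory subunit gene Pik3r1 was lower, at 199 ± 31.9 and 155 ± 10.2 CPM (SD, n = 3 each; log2 fold change of -0.36, adjusted p = 0.0212, edgeR). The other gene called lower was Gsk3a (-0.22, adjusted p = 0.0109, edgeR). Akt1 and Akt2 were not called, with log2 fold changes of -0.10 (95% interval -0.23 to 0.04) and -0.06 (95% interval -0.21 to 0.09).

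In the mTOR complexes, 5 of 12 genes were higher and 2 were lower (median log2 fold change of 0.16), beside 20.4% and 19.6% of all genes tested. Deptor, which encodes an inhibitor bound to mTOR, was at 9.34 ± 0.742 and 20.1 ± 1.97 CPM (SD, n = 3 each; log2 fold change of 1.11, adjusted p = 4.05e-05, edgeR), and Eif4ebp1, a repressor of translation that mTOR phosphorylates, was higher by 0.91 (adjusted p = 0.000401, edgeR). Rictor, the scaffold of the complex that phosphorylates AKT, was higher by 0.53 (adjusted p = 0.000142, edgeR). With the chromosome median removed, Deptor was at 0.92, Eif4ebp1 at 0.60 and Rictor at 0.34, and all 3 passed the threshold.

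Of the 4 FoxO genes, Foxo3 alone was called, at 150, 131 and 120 CPM among WT samples, against 234, 215 and 243 CPM among AS samples. The lines did not overlap, and edgeR put the log2 change at 0.79 ± 0.09 (SE; adjusted p = 9.74e-05). It lies on chromosome 10, and with the chromosome median removed it was at 0.48. Of 14 genes known as FoxO targets, 7 were higher and 2 were lower (median log2 fold change of 0.30), where the share of all genes called was 40.1%. Klf15 was lower by a log2 fold change of -1.33 (adjusted p = 0.0221, edgeR), at 0.955 ± 0.216 and 0.381 ± 0.152 CPM (SD, n = 3 each). Gadd45a was lower by -0.21 (adjusted p = 0.0270, edgeR). The stress-response gene Sesn1 (0.88, adjusted p = 4.89e-05), the cyclin gene Ccng2 (0.67, adjusted p = 5.91e-05), the ubiquitin ligase gene Fbxo32 (0.95, adjusted p = 7.85e-05) and the cell cycle inhibitor gene Cdkn1b (0.36, adjusted p = 0.00125) were higher in AS podocytes, as log2 fold changes in edgeR's test. Irs2 belongs to this list as well. Several of these genes lie on chromosomes 5, 8, 10 and 15, which were higher as a whole, and Sesn1, Ccng2 and Fbxo32 kept 0.57, 0.48 and 0.76 with the chromosome median removed.

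**Figure D4:**
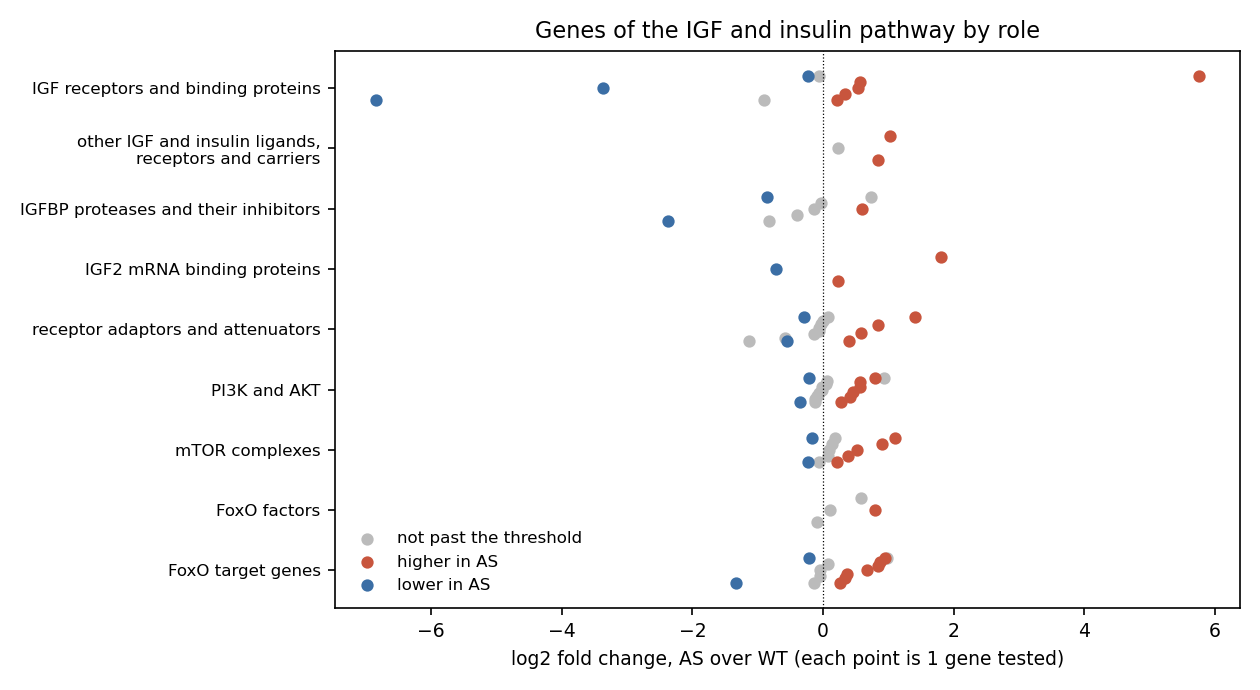
Log2 fold change of AS over WT podocytes for every tested gene of the IGF and insulin lists, with 1 point per gene (red, called higher; blue, called lower; grey, not past an adjusted p of 0.05 in edgeR). The outermost points are Igfbp3, Igfbp5 and Igfbp6 in the top row, while the genes downstream of the receptors lie mostly between -1.5 and 1.5.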

How the data were processed

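Bulk RNA of 3 WT and 3 AS podocyte samples was measured. The file the authors deposited holds raw counts per gene as whole numbers. Per the labels, libraries were made from mRNA with 15 PCR cycles, and the submitters' processing notes list FastQC, Trim Galore, STAR, edgeR and the build mm39. The sources used here do not give the annotation release or the use of strand. Of 57132 identifiers, 51880 matched GENCODE M21 (GRCm38) without their version, and those unmatched held 0.363% of the counts. M21 was used for names, chromosomes, gene order and lengths, and, beside the RefSeq promoters, no coordinates are given.

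The tools were edgeR 4.0.16 under R 4.3.3 and, as alternatives, limma 3.58.1 (voom) and DESeq2 1.42.0. Genes passing filterByExpr (minimum count 10, minimum total count 15) were scaled by TMM, and AS was compared with WT by the two-sided quasi-likelihood test of edgeR. Benjamini-Hochberg adjustment was over 16263 genes. CPM are relative to TMM-scaled library sizes. Dividing a log2 fold change by the root of its F statistic gave the standard error (SE) behind the 95% intervals. CPM per kilobase divide by the union of M21 exons. Shares and ratios within samples were compared by exact permutation tests. The scripts were tested on simulated data. Replicates were not blocked, and a block, other scalings, filters, lengths, tests and each sample left out were alternatives. Chromosome medians used genes whose mean log2 CPM exceeded 2. Where a chromosome median was removed, the amount taken off was that median minus the median of all such genes.

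The 10 genes and all lists were chosen with earlier results of these data known. Named were the 10 genes, Col4a3, Igf2, Igf2r, Igfbp1, Irs2, Pappa and at most 4 called genes per list with the smallest adjusted p. Acta2, Tagln, Myh11, Htra1, Stc1, Irs3, Irs4, Akt1 and Akt2 were named after their values were seen. So were Pik3r1, Gsk3a, Klf15, Gadd45a and the genes at 0 counts or used as a check of cell type. Counting intervals and limits cover counting error only, as the sources name no molecular identifiers for the reads. Some genes of the lists are not reported here. Proteins and signalling were not measured.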

Additional observations from a re-analysis of the deposited data

How the results depend on the processing

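Igfbp3, Igfbp5, Igfbp6 and Irs1 were called in the same direction by every alternative in which they were tested. Of 138 values of the 10 genes, 123 stayed on their side of the threshold with the same sign, 14 missed it and 1 reversed, and of 557 values of 40 other genes 541 did so and 16 missed it. The reversed value was the log2 fold change of Igf1r, 0.030 without WT replicate 1 (lowest -0.15, highest 0.030 when single samples were removed). The number of the 10 genes past the threshold was 8, and it was 4, of which 2 were higher, with chromosome medians removed, an alternative that for these counts was chosen after seeing the data. Over the removals of single samples, 3 to 5 of the 10 were called higher and 5120 to 6776 of all genes were called, the lowest of these without WT replicate 2 and AS replicate 3, respectively. Without a filter on low counts 28656 genes were tested, with 8 of the 10 called, and under a mean CPM minimum of 1, 12911 were tested and 7 called, since Igfbp3 was not tested there (nor was Igfbp4). The directions of the binding protein shares and of the Igf1r to Insr ratio held with another length, without length and with each sample left out. The labels do not say whether equal replicate numbers pair the samples of the lines. For equal numbers, the correlation of deviations from group means was 0.147, 0.0939 and 0.0526. For unequal numbers it ran from -0.130 to 0.0571, and 5 of 6 samples were closest to their own number. The replicate block gave 7066 genes and the same 8 of the 10. Depth limits Igf2, and Igfbp3 in AS podocytes.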
